A study of Mus musculus with 8 samples.

Results

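H19, Igf2, Cdkn1c, Dlk1, Peg3, Mest, Grb10, Plagl1, Igf2r and Sgce are imprinted genes that act on growth before birth or are expressed with genes that do. They were examined in mouse liver after an adenovirus labelled AdLeXis, against an adenovirus labelled AdGFP. The arrays carried 23 probes named for these 10 genes, of 55681 non-control probes in all. The genes were selected on the measured difference between AdLeXis and AdGFP livers, in which H19 and Cdkn1c were higher and Igf2 was not, so their values in this contrast are given as a description, with no test. At the 7 H19 probes the difference was uneven, with 4 probes called higher in AdLeXis livers, 2 not called and 1 too dim to fit. The single Cdkn1c probe was higher by 1.88 on the log2 scale. None of the 14 probes of the other 8 genes that could be fitted was called. Over all probes that could be fitted, 7.7% were called higher and 7.17% lower.

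The AdLeXis group held 4 liver samples and the AdGFP group 4, each hybridised to its own Agilent 1-colour array. LeXis is a long non-coding RNA, GFP is the fluorescent protein commonly used as a control cargo, and the overexpressed transcript itself was not analysed here. Both groups were bl6 mice aged 12 weeks and fed chow, with no other alteration labelled, and their liver RNA was taken on day 6. The treatment text of the labels instead names the vectors pblockITcontrol and pblockITshRaly, so the labels disagree, and the treatment tag was used to form the groups. Nothing in the labels ties a sample to its own animal, and the p-values below therefore measure only how these samples spread, which may be technical. All arrays lay on 1 slide, with AdLeXis samples in array row 2 and AdGFP samples in array row 1, so row and group cannot be told apart. Before scaling, the 75th percentile of the intensity was 381 to 448 on AdLeXis arrays and 220 to 297 on AdGFP arrays. After scaling, arrays correlated across probes at 0.989 to 0.993 within a group and at 0.980 to 0.987 between groups. As a check of the tissue, all 8 hepatocyte markers were measured, albumin (Alb) among them.

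An imprinted gene is transcribed mainly from the copy inherited from one parent, under DNA methylation laid down in the germ line at control regions. In many mouse tissues the growth factor gene Igf2 is transcribed from the paternal copy and the non-coding RNA H19 from the maternal copy, with enhancers that both genes can use and a control region at which the insulator protein CTCF binds the unmethylated maternal copy. Both genes are active in fetal liver and are switched off after birth, and in mouse the zinc finger protein Zhx2 is known to hold H19 and Afp down in adult liver. Paternally expressed members of the group (Igf2, Dlk1, Peg3, Mest, Plagl1, Sgce) mostly favour growth, and maternally expressed ones (H19, Cdkn1c, Igf2r, Grb10) mostly restrain it.

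The 7 H19 probes are shown because they gave unequal differences for 1 transcript. H19 is on chromosome 7, and the files annotate its region at chr7:149761435-149764019 of build mm9, minus strand, a span of 2585 bases. The probes are numbered H19 1 to H19 7 from the 3′ end, and each 60-base sequence is printed 5′ to 3′ as the scanner files list it. They lie 57, 258, 321, 522, 678, 738 and 982 bases from the 3′ end, none of them overlaps another, and H19 1 to H19 5 are 45% G and C while H19 6 and H19 7 are 55%.
H19 1 (chr7:149761492-149761551): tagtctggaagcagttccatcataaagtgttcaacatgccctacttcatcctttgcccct
H19 2 (chr7:149761693-149761752): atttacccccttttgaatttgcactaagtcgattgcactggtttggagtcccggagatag
H19 3 (chr7:149761756-149761815): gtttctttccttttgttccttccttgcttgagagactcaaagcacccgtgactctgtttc
H19 4 (chr7:149761957-149762016): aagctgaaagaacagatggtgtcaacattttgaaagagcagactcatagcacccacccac
H19 5 (chr7:149762113-149762172): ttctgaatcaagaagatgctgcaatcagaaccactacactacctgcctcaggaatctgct
H19 6 (chr7:149762173-149762232): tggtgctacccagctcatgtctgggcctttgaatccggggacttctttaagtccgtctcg
H19 7 (chr7:149762417-149762476): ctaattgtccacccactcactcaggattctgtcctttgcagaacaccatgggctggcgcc

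Values below are log2 processed intensities scaled to each array's 75th percentile, and a difference is the AdLeXis mean minus the AdGFP mean on that scale. At H19 1 the AdLeXis arrays read 8.02, 7.09, 6.29 and 7.18, and the AdGFP arrays 2.59, 3.68, 4.04 and 3.58. The means were 7.15 ± 0.71 in AdLeXis livers and 3.47 ± 0.62 in AdGFP livers (SD, n = 4 each), a difference of 3.67 (SE 0.40), or 12.8-fold. Every AdLeXis array lay above every AdGFP array, and the gap between the groups was wider than the spread within either. The signal was well above background on 4 AdLeXis arrays and 3 AdGFP arrays.

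H19 2 read 6.28, 5.25, 4.79 and 5.20 on AdLeXis arrays and 2.25, 0.76, 0.75 and 2.67 on AdGFP arrays, a difference of 3.77 (SE 0.50). No AdGFP array was well above background there, so only a bound can be given, at least 6.48-fold higher in AdLeXis livers. The bound sets the AdLeXis mean against the mean of, per AdGFP array, the higher of the lowest signal well above background and the probe's own. H19 3 read 6.09, 5.41, 4.67 and 5.33 on AdLeXis arrays and 1.28, 3.36, 3.49 and 2.94 on AdGFP arrays, a difference of 2.61 (SE 0.50). The groups did not overlap at either probe, and AdGFP 1 lay well below the other AdGFP arrays at H19 3. Only 2 AdGFP arrays were well above background at H19 3, so its difference rests in part on signals near background.

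Farther from the 3′ end the probes were dim and disagreed with one another. H19 4 read 3.95, 3.86, 1.97 and 3.35 on AdLeXis arrays and 1.40, 1.12, 2.70 and 2.41 on AdGFP arrays. It was above background on too few arrays to enter the fit, and the groups overlapped because AdLeXis 3 lay below 2 of the AdGFP arrays. H19 5 read 4.60, 3.54, 2.92 and 4.01 on AdLeXis arrays and 2.98, 2.10, 3.24 and 4.45 on AdGFP arrays, a difference of 0.57 (SE 0.51) within the spread of the arrays.
H19 6, which starts at the base next to the end of H19 5, read 3.95, 3.27, 2.92 and 3.23 on AdLeXis arrays and 1.45, 0.87, 1.22 and 1.77 on AdGFP arrays. These groups did not overlap, the difference was 2.02 (SE 0.25), and with no AdGFP array well above background the same approximate bound was 1.58-fold. H19 7 read 2.50, 2.99, 2.76 and 2.90 on AdLeXis arrays and 3.37, 2.42, 3.14 and 3.39 on AdGFP arrays. There the groups overlapped, the difference was -0.29 (SE 0.22), and only 2 AdLeXis and 3 AdGFP arrays were well above background.

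**Figure D1:**
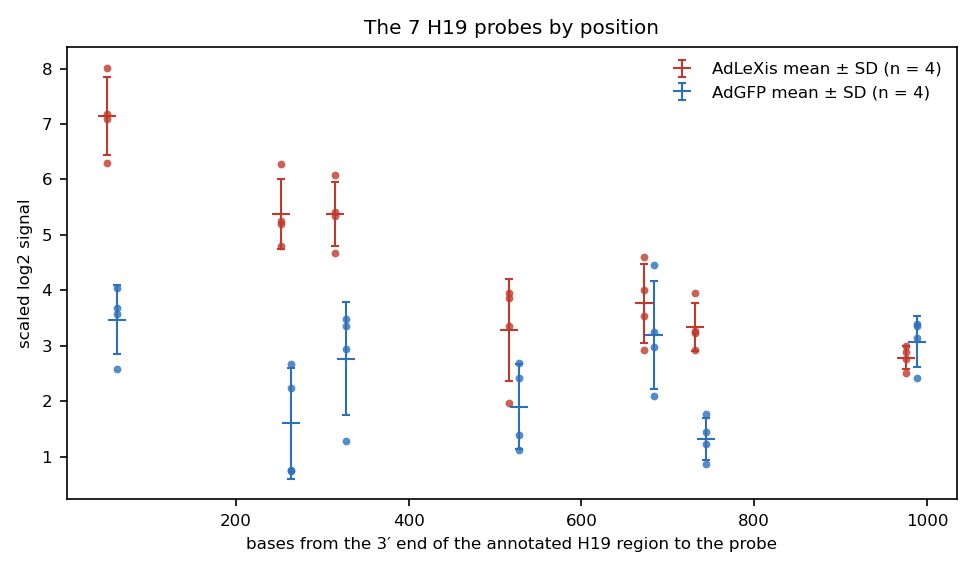
Scaled log2 signal (vertical axis) of the 7 H19 probes against the distance of each probe from the 3′ end of the annotated H19 region in bases (horizontal axis). Dots are arrays and bars are the mean ± SD of 4 arrays in each group; AdLeXis lies above AdGFP without overlap at 57, 258, 321 and 738 bases, and the groups overlap at 522, 678 and 982 bases.

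H19 1, H19 2, H19 3 and H19 6 were called higher by limma over all kept probes, H19 5 and H19 7 were not called, and H19 4 could not be called. Over all 34440 kept probes 7.7% were called higher and 7.17% lower at an adjusted p under 0.05, and the groups were apart at 11.8% with all AdLeXis arrays above and at 11.1% with all below. Among the 11033 kept probes whose mean signal lay in the range of the kept H19 probes, 6.01% were called higher and 2.88% lower. These shares stand beside the H19 counts as background only, since this contrast chose the gene. H19 2 and H19 6 entered the fit through their AdLeXis arrays alone, since no AdGFP array was well above background. A log2 difference above 2 was seen at 87 (0.789%) of the probes in that signal range. Within the AdLeXis group, AdLeXis 1 read highest and AdLeXis 3 lowest at each of H19 1 to H19 6.
The size of the H19 difference changed with the processing. With normexp background correction, an offset of 50 and quantile scaling, changed together and called the normexp setting below, the differences became 1.48 at H19 1, 0.72 at H19 2, 0.59 at H19 3 and 0.22 at H19 6, and all 4 stayed called higher. When a probe had to be well above background on all 8 arrays, no H19 probe was kept.

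Cdkn1c encodes p57Kip2, an inhibitor of cyclin-dependent kinases that halts the cell cycle, and it is expressed from the maternal copy. Its single probe lies at chr7:150644753-150644812 (mm9, minus strand), 882 kb from the nearest H19 probe. It read 9.45, 8.35, 8.23 and 9.09 on AdLeXis arrays and 6.87, 6.91, 6.55 and 7.28 on AdGFP arrays. Every AdLeXis array was above every AdGFP array, with means of 8.78 ± 0.59 in AdLeXis livers and 6.90 ± 0.30 in AdGFP livers (SD, n = 4 each). The difference was 1.88 (SE 0.29), or 3.68-fold, and the probe was called higher. Unlike the H19 probes it was well above background on all 8 arrays. As at H19 1, AdLeXis 1 read highest and AdLeXis 3 lowest. Across the other processing settings the difference ran between 1.33 and 2.06, and in each of them the probe stayed called higher.

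Igf2, the paternally expressed fetal growth factor, has 1 probe 77.2 kb from the nearest H19 probe, at chr7:149839661-149839720 on the minus strand. It read 3.64, 3.37, 3.48 and 3.91 on AdLeXis arrays and 3.71, 3.78, 3.70 and 3.61 on AdGFP arrays, all of them well above background. The groups overlapped fully, with means of 3.60 ± 0.24 in AdLeXis livers and 3.70 ± 0.07 in AdGFP livers (SD, n = 4 each) and a difference of -0.10 (SE 0.12). The probe was not called under any setting, with differences between -0.22 and -0.02.

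Igf2r, maternally expressed in mouse, encodes the receptor that takes up IGF2 and carries it to lysosomes. Its probe, spotted 10 times on each array, read 10.46, 10.67, 10.48 and 10.84 on AdLeXis arrays and 10.34, 10.43, 10.38 and 10.33 on AdGFP arrays. The groups did not overlap, although the gap between the nearest arrays was small. The difference was 0.24 (SE 0.10), or 1.18-fold, and was not called.
Grb10, an adaptor that binds the insulin and IGF1 receptors and dampens their signal, is maternally expressed in most mouse tissues. It read 4.24, 4.97, 4.65 and 4.84 on AdLeXis arrays and 4.43, 5.20, 4.81 and 4.24 on AdGFP arrays. The means were 4.67 in both groups, with SDs of 0.32 in AdLeXis livers and 0.42 in AdGFP livers (n = 4 each), and the groups overlapped.

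**Figure D2:**
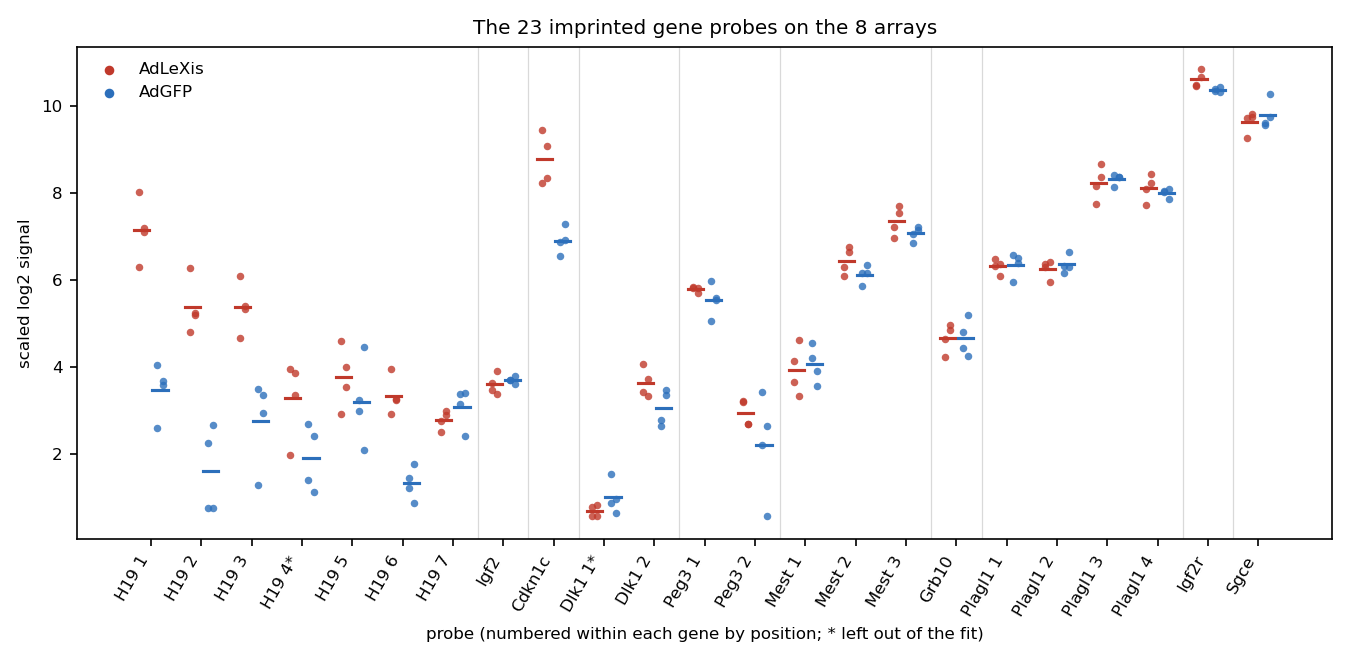
Scaled log2 signal (vertical axis) of all 23 probes of the 10 imprinted genes (horizontal axis), AdLeXis to the left of AdGFP at each probe. Dots are arrays, short lines are the means of 4 arrays, and asterisks mark the 2 probes too dim for the fit; outside H19 and Cdkn1c the groups overlapped at every probe except that of Igf2r.

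Plagl1 (Zac1), a paternally expressed zinc finger transcription factor that in mouse is known to regulate other imprinted genes, Igf2, H19 and Cdkn1c among them, was measured by 4 probes on chromosome 10. The differences were -0.03, -0.11, -0.09 and 0.11 in order along the gene, the groups overlapped at all 4, and none was called. The last of them, Plagl1 4, read 7.71, 8.42, 8.09 and 8.22 on AdLeXis arrays and 8.05, 8.09, 8.02 and 7.86 on AdGFP arrays. Plagl1 3 and Plagl1 4 (chr10:12850832-12850891 and chr10:12851280-12851339) do not overlap by position, yet their sequences share a run of 26 bases, shown because it means that they are not independent measures.
Plagl1 3 and Plagl1 4: atctcctaacctttgatgactctgta

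Mest, a paternally expressed gene for a membrane protein of the hydrolase family that marks fetal growth and enlarging fat cells, had 3 probes on chromosome 6. The probe spotted 10 times, Mest 3, read 7.21, 7.69, 6.96 and 7.55 on AdLeXis arrays and 7.05, 7.16, 6.86 and 7.21 on AdGFP arrays. Its difference of 0.28 (SE 0.17) and that of 0.32 (SE 0.17) at Mest 2 were not called, the groups overlapped, and AdLeXis 2 and AdLeXis 4 were the high arrays at both. Mest 1 differed by -0.12 (SE 0.31), also with overlap.
Sgce, the paternally expressed gene for epsilon-sarcoglycan, a protein of the membrane complex that links cells to the matrix, read 9.27, 9.75, 9.71 and 9.82 on AdLeXis arrays and 9.61, 9.75, 9.57 and 10.28 on AdGFP arrays. The groups overlapped and the difference was -0.16 (SE 0.19).

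Peg3, a paternally expressed zinc finger protein with effects on growth and maternal behaviour, had 2 probes far from H19 on chromosome 7. Peg3 1 read 5.81, 5.81, 5.83 and 5.69 on AdLeXis arrays and 5.97, 5.58, 5.05 and 5.54 on AdGFP arrays, a difference of 0.25 (SE 0.17). Peg3 2 differed by 0.73 (SE 0.53), and its AdGFP values of 3.42, 0.58, 2.21 and 2.65 spread so widely, with 1 of them well above background, that the groups overlapped.
Dlk1, a paternally expressed membrane protein of the Notch ligand family that marks fetal liver progenitors, had 2 probes on chromosome 12. Dlk1 1 was not well above background on any array. Dlk1 2 read 4.06, 3.71, 3.41 and 3.33 on AdLeXis arrays and 2.64, 3.36, 2.78 and 3.46 on AdGFP arrays. The groups overlapped, the difference was 0.57 (SE 0.23) and was not called, and with normexp it was 0.016.

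Counted together, 21 of the 23 probes entered the fit. Beside 7.7% called higher and 7.17% lower over all kept probes, 5 of the 21 were called higher, 0 lower and 16 were not called. All 5 belonged to H19 and Cdkn1c, the genes whose rise led to the choice, so the split between maternally and paternally expressed genes restates that choice and nothing is read from it. Of the 14 kept probes outside H19 and Cdkn1c, 12 differed by less than 0.5 in either direction, and their median difference was 0.05, beside 0.00 over all kept probes. Of the 13 probes well above background on all 8 arrays, only that of Cdkn1c was called. When all probes had to pass that filter, 2739 of 29539 were called higher and 2969 lower.

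**Figure D3:**
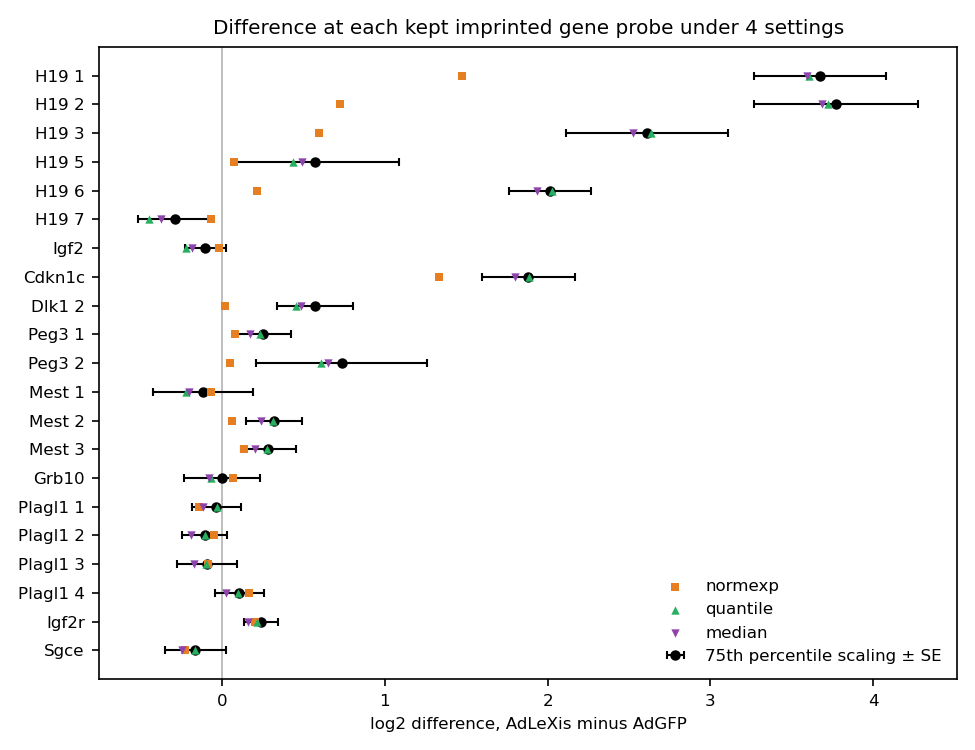
Log2 difference, AdLeXis minus AdGFP (horizontal axis), at the 21 kept probes of the 10 imprinted genes (vertical axis), with 75th percentile scaling (black, bars are SE) and under normexp, quantile and median settings. H19 differences were smaller with normexp (1.48 in place of 3.67 at H19 1), Cdkn1c kept 1.33, and Igf2 stayed near 0 under all 4.

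No probe of another gene within 200 kb of H19 or Cdkn1c was called higher before the processing was varied, beside 7.7% of all kept probes. Of 11 kept probes of other genes within 200 kb of H19, 3 were called lower, beside 7.17% of all kept probes, with a median difference of -0.23. Tested with limma over all kept probes, those lower in AdLeXis livers were Lsp1, a leukocyte protein bound to the cytoskeleton (-0.69, adjusted p = 0.00535, 81.0 kb away), Tnni2, a troponin of fast muscle (-0.55, adjusted p = 0.00927, 131 kb away), and Ins2, an insulin gene that is imprinted in the yolk sac (-0.68, adjusted p = 0.0450, 102 kb away). The Ins2 call did not last when any 1 of 7 arrays was left out (adjusted p 0.0565 to 0.104), AdGFP 2 being the exception, nor with normexp (-0.21, adjusted p = 0.0852) or no filter on dim probes (adjusted p = 0.0903). Igf2os, the antisense transcript at Igf2, differed by -0.00.
Within 200 kb of Cdkn1c, 0 of 10 kept probes were called (2 had an unadjusted p under 0.05 by limma), with a median difference of 0.05. The 3 of smallest p were Nap1l4, a histone chaperone (0.23, limma adjusted p = 0.103), the antisense RNA KCNQ1ot1, which silences the paternal copies of its neighbours in mouse placenta and embryo (0.38, adjusted p = 0.130), and a probe of the potassium channel gene Kcnq1 (0.23, adjusted p = 0.205). An overlapping probe of Kcnq1 differed by -0.07 (adjusted p = 0.778). With normexp KCNQ1ot1 (0.34, adjusted p = 0.0250) and the first Kcnq1 probe (0.29, adjusted p = 0.0251) were called higher. Phlda2, which lies beside Cdkn1c and restrains placental growth, was well above background on 1 AdLeXis array and on no AdGFP array.

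**Figure D4:**
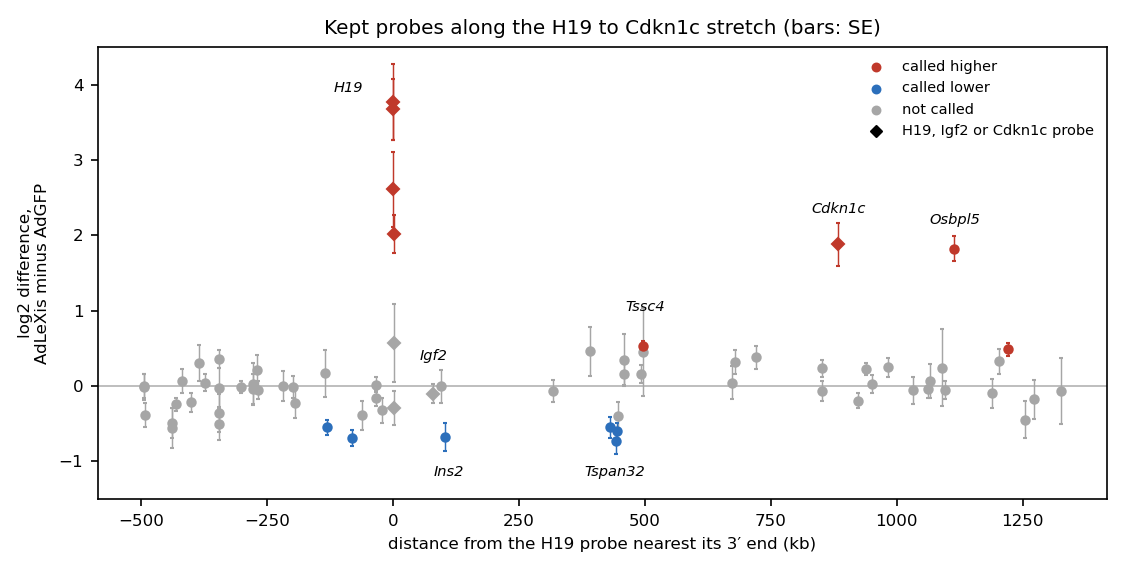
Log2 difference, AdLeXis minus AdGFP (vertical axis, bars are SE), of the kept probes around H19 and Cdkn1c against their distance in kb from H19 1 (horizontal axis). Red and blue are probes called higher and lower by limma; between H19 and Cdkn1c only Tssc4 was called higher, Tspan32 and Ins2 were called lower, and Osbpl5 and Nadsyn1 (0.49) were called higher beyond Cdkn1c.

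Other imprinted genes were read from a list of 61, of which 44 were measured. Of these, 2 were called higher (4.55%, against 7.92% of all genes) and 4 lower (9.09%, against 7.88% of all genes), and 38 differed by less than 0.5 in either direction. The largest rise was that of Osbpl5, an oxysterol-binding protein gene expressed from the maternal copy in mouse placenta, which lies 230 kb from Cdkn1c. Osbpl5 read 10.98, 11.22, 11.25 and 11.58 on AdLeXis arrays and 9.10, 9.56, 9.44 and 9.65 on AdGFP arrays. The groups were far apart, with a difference of 1.83 (SE 0.16, limma adjusted p = 6.79e-04). Tssc4, a splicing factor gene in the same stretch of chromosome 7, was higher by 0.53 (SE 0.07, adjusted p = 0.00388), although with normexp it was no longer called (0.33, adjusted p = 0.0614).
Among the maternally expressed genes the fallers were Tspan32, a tetraspanin of blood cells (-0.60, adjusted p = 0.0104, with its 3 kept probes all lower), and Pon3, a lactonase carried on HDL (-0.40, adjusted p = 0.0220). The Pon3 call was lost without AdGFP 1, 2 or 4 or AdLeXis 4 (adjusted p 0.0505 to 0.0629). Of the 18 measured paternally expressed genes, each at its brightest probe, 0 were called higher by limma and 2 lower (7 had an unadjusted p under 0.05 in either direction). The 2 were Impact, an inhibitor of the GCN2 stress kinase (-0.43, adjusted p = 0.0163), and Ins2. Dimmer probes did not all follow. Of the kept probes of paternally expressed Airn, 1 of 3 was called higher (differences -0.38 to 1.18), and 1 of 2 of Snrpn was called lower. For maternally expressed H13, 1 of 4 was called higher (differences -0.14 to 0.66). With the replicate number added to the limma fit as a block, the calls of Impact (adjusted p = 0.0593) and Pon3 (adjusted p = 0.0590) were lost.

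Of 14 measured genes of IGF signalling, 0 were called higher by limma and 2 lower (5 had an unadjusted p under 0.05), beside 7.92% higher and 7.88% lower over all genes, with a median of -0.03. Igfbp1, the liver's insulin-regulated IGF-binding protein, read 15.13, 15.80, 15.85 and 14.80 on AdLeXis arrays and 16.61, 16.20, 16.47 and 16.63 on AdGFP arrays. The groups did not overlap, and the difference was -1.08 (SE 0.24, limma adjusted p = 0.0222). Irs2, an adaptor of the insulin receptor, fell by 0.86 (SE 0.21, adjusted p = 0.0303). Leaving out 1 array ended the Igfbp1 call for 3 of the 8 arrays (AdGFP 1, 3 and 4, adjusted p 0.0502 to 0.0585) and the Irs2 call for 6 of them (all but AdGFP 2 and AdLeXis 1, adjusted p 0.0524 to 0.0773).

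Of 8 other measured genes that are active in fetal liver and quiet in the adult, 0 were called higher and 1 lower by limma (3 had an unadjusted p under 0.05), with a median of -0.29. Over all genes 7.92% were called higher and 7.88% lower, and nothing particular to this short list is read from its count. Afp, the fetal plasma protein alpha-fetoprotein, read 8.49, 8.30, 7.25 and 7.98 on AdLeXis arrays and 8.45, 8.0, 8.43 and 8.02 on AdGFP arrays. The groups overlapped, and the difference was -0.22 (limma adjusted p = 0.618). Gpc3, a cell-surface glypican that binds growth factors, differed by 0.09 (adjusted p = 0.863), the RNA-binding protein Igf2bp2 by 0.20 (adjusted p = 0.544) and the chromatin protein Hmga2 by -0.04 (adjusted p = 0.907). Cd24a, a surface protein of progenitor and blood cells, was the gene called lower (-0.59, adjusted p = 0.0434), and that call was lost without any 1 of 7 arrays, AdGFP 2 being the exception (adjusted p 0.0648 to 0.105), and with normexp (-0.18, adjusted p = 0.337). Bex1 (-0.46, adjusted p = 0.191), the desaturase Scd2 (-0.38, adjusted p = 0.0652) and the transcription factor Sall4 (-0.36, adjusted p = 0.0620) were not called. With normexp Scd2 (-0.53, adjusted p = 0.0261) and Sall4 (-0.29, adjusted p = 0.0282) were called lower, and Sall4 also with median scaling (adjusted p = 0.0232) and quantile scaling (adjusted p = 0.0463). On no array did Lin28b or Igf2bp1 stand well above background.

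Among 27 measured regulators of imprinted or fetal liver genes, 3 were called higher and 1 lower, beside 7.92% and 7.88% of all genes. Zhx2 could not be fitted, since it was well above background on only 2 AdLeXis arrays and 1 AdGFP array. Its relative Zhx3 was higher by 0.59 (SE 0.10, limma adjusted p = 0.00658) at its brightest probe; of its 3 kept probes 2 were called higher (up to 0.62) and the other differed by -0.17. Zbtb20, a repressor of Afp in mouse liver, differed by -0.02 (adjusted p = 0.926). Ezh2, the enzyme of the Polycomb complex that methylates histone H3, was higher by 0.78 (SE 0.08, adjusted p = 0.00145). Hells, a remodeller needed for DNA methylation, was higher by 0.91 (adjusted p = 0.0452), a call lost without any 1 of 7 arrays, AdLeXis 3 being the exception (adjusted p 0.0536 to 0.102), and under median, quantile and loess scaling. Zfp57, which protects imprinted methylation in the early embryo, was lower (-0.40, adjusted p = 0.0135). The maintenance methyltransferase Dnmt1 (0.35, adjusted p = 0.0543) and Ctcf (0.30, adjusted p = 0.0703) were not called, although with normexp Ctcf was called higher (0.49, adjusted p = 0.00367). With an intensity trend in the limma variance, Dnmt1 (adjusted p = 0.0310) and Ctcf (adjusted p = 0.0378) were called higher. Dnmt1 was also called when probes had to be well above background on all 8 arrays (adjusted p = 0.0403).

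A list of 13 measured genes held cyclins, their kinases, the relatives of Cdkn1c and the replication clamp gene Pcna. Of these, 8 were called higher, Pcna among them (0.40, limma adjusted p = 0.0354), and 2 lower, with a median of 0.40. Over all genes 7.92% were called higher and 7.88% lower, with a median of -0.00. The count of 8 was 4 with no filter on dim probes or without AdLeXis 4 or AdGFP 2, and 5 without AdGFP 3. Cdkn1a, which encodes the related inhibitor p21, was higher by 1.60 (limma adjusted p = 0.00170). Cyclin E1 (Ccne1, which drives entry into DNA synthesis) was higher by 1.78 (adjusted p = 6.28e-04), cyclin B1 (Ccnb1, which acts at mitosis) by 1.48 (adjusted p = 8.11e-04), and Cdk2, the kinase partner of cyclin E1, by 0.75 (adjusted p = 0.00219). Cyclin D1 (Ccnd1, which acts in G1) was the larger of the falls, at -1.48 (adjusted p = 0.00147), followed by Cdk6, the kinase it can bind, at -0.60 (adjusted p = 0.0420), a call lost without any 1 of 7 arrays (adjusted p 0.0617 to 0.101), AdGFP 2 being the exception.

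**Figure D5:**
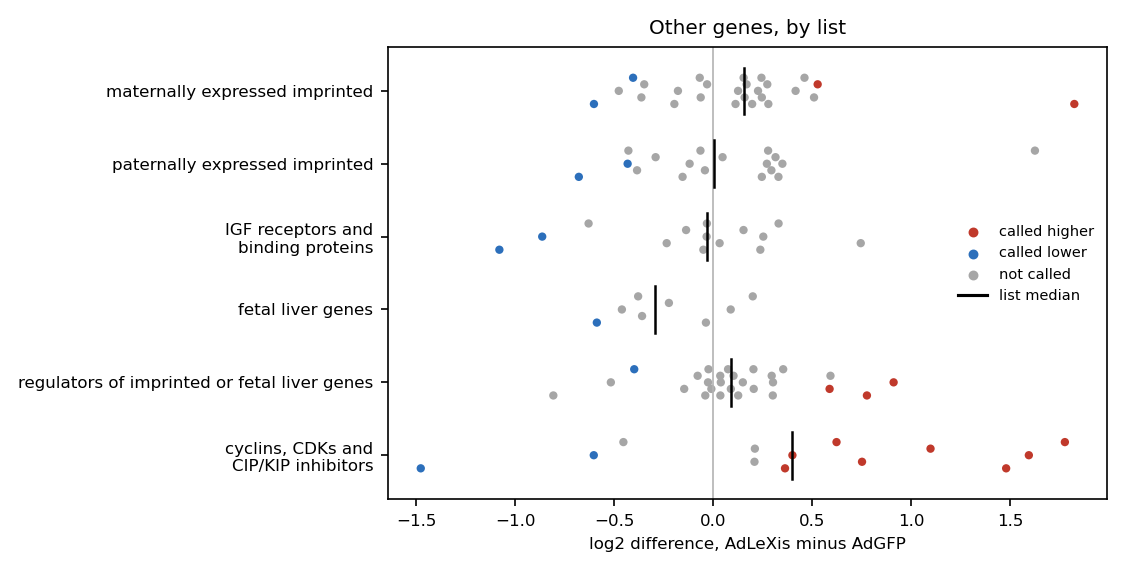
Log2 difference, AdLeXis minus AdGFP (horizontal axis), of each measured gene in 6 lists that leave out the 10 imprinted genes described first (vertical axis). Dots are genes at their brightest kept probe, red and blue are genes called higher and lower by limma, and bars are list medians; the cyclin list holds 8 genes called higher and the fetal liver list 0.

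Some markers of liver cell types moved with the groups too, and their part in the results above was not tested. The counts below stand beside 7.92% called higher and 7.88% called lower over all genes. In bulk liver, fewer cells of a type and less RNA per cell cannot be told apart. The part of the scaling between arrays was not tested either, and before scaling the AdLeXis arrays were the brighter ones, as given above. Of 8 hepatocyte markers 5 were called lower, 0 higher and 3 were not called. The 5 called lower were the brightest of the 8, so the sum rests mostly on them. The summed signal of all 8 was 1189670 to 1395040 in AdLeXis livers and 1813680 to 1914620 in AdGFP livers. Of 8 T and NK cell markers 7 were lower and 0 higher, with sums of 7823 to 8422 in AdLeXis livers and 15022 to 16098 in AdGFP livers.
Stellate cell and fibroblast markers were called lower for 3 of 11 and higher for 0, with overlapping sums of 9110 to 13224 in AdLeXis livers and 10618 to 16068 in AdGFP livers. Of the Kupffer cell markers 2 of 8 were lower (sums of 37042 to 46466 in AdLeXis livers and 43051 to 60542 in AdGFP livers), as was 1 of 7 bile duct and progenitor markers (1333 to 2393 in AdLeXis livers and 1457 to 2350 in AdGFP livers). None of the 8 endothelial markers was called by limma, and 0 had an unadjusted p under 0.05 (15724 to 17630 in AdLeXis livers and 14621 to 17364 in AdGFP livers). Adipocyte markers were called in neither direction for 4 of 4 measured, with sums of 3568 to 8027 in AdLeXis livers and 3101 to 4636 in AdGFP livers, and Adipoq and Lep were too dim for the fit. The skeletal muscle markers Ckm, Myh4, Myod1 and Myog stayed below the background threshold throughout, and the other 2 were not called (summed signal 6.81 to 57.3 in AdLeXis livers and 19.1 to 37.1 in AdGFP livers).

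The genes whose profile over the 8 arrays was nearest to H19 1, by the root mean square difference of the centred log2 values, were Hao2 (0.535), Hapln1 (0.657), Cyp2b13 (0.678), Pcdh20 (0.688) and Fam81a (0.691). On the same measure H19 3 lay at 0.598 and Cdkn1c at 1.03. Hao2, a peroxisomal hydroxyacid oxidase, read 5.66, 3.86, 3.56 and 4.70 on AdLeXis arrays and 1.10, 0.60, 0.98 and 1.32 on AdGFP arrays. As at H19 1 and Cdkn1c, AdLeXis 1 was its highest array and AdLeXis 3 its lowest, an order that the choice by likeness to H19 1 favours. The same held at Cyp2b13, while AdLeXis 4 was the highest AdLeXis array at Hapln1, Pcdh20 and Fam81a. The AdGFP arrays of Hao2 were all below the background threshold, so only the same approximate bound can be given, 3.39-fold higher in AdLeXis livers. Cyp2b13, a cytochrome P450 of the liver, differed by 2.70, and Hapln1, a link protein of the cell matrix, by 2.83. These genes were found by their likeness to H19 in this contrast, so their differences are a description.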

How the data were processed

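The deposited scanner files hold linear spot intensity. The software was Agilent Feature Extraction, version 11.5.1.1 in the file headers and 11.5.1.11 per the submitters' processing notes. Background subtraction and detrending had been applied to the intensity of every array, per the file headers, with no scaling between arrays. The deposited value table held the same intensity, and flags for outliers and background came from the scanner files. Control and outlier spots (127 to 256 per array) were dropped. The log2 intensity was scaled to each array's 75th percentile, and spots of a probe were averaged. Probes entered the fit if 4 or more arrays were well above background and each group had 2 or more measured arrays. Groups were compared with limma 3.58.1 in R 4.3.3, two-sided, with Benjamini-Hochberg adjustment over 34440 probes and a threshold of 0.05. The fit was tested on simulated data. The number of arrays limits the precision.

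The imprinted genes, the lists and the rules were chosen with earlier results of these data known. Probe positions are those of mm9 per the file headers. Names came from a RefSeq gene table for 27656 probes by accession, 3401 by symbol and 321 by synonym, and 24303 kept the file's name. Lists use each gene's kept probe of highest mean; sums add linear signals. Named genes are all probes of the 10 imprinted genes; per list up to 4 called genes of smallest p in each direction; all measured fetal liver genes; Zhx2, Zbtb20, Ctcf and Dnmt1; probes within 200 kb of H19 or Cdkn1c that were called, or else the 3 of smallest p; and the 5 nearest profiles. Igf2os, Nadsyn1, Phlda2, Lin28b, Igf2bp1, Pcna, Airn, Snrpn and H13 were named after their values were seen. Alternatives covered background correction, scaling, probe filter, variance trend, replicate block and leaving out each array.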

Additional observations from a re-analysis of the deposited data

Results flagged for a closer look

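In 5 of 120 groups of 4 arrays, 1 array stood far from the other 3 by Dixon's criterion, where chance marks about 1 in 20 groups; none of these was a probe of the 10 imprinted genes. For Impact it was AdGFP 4, at 10.9 against 11.09 to 11.11 on the other AdGFP arrays. For Bex1 it was AdGFP 2, at 4.15 against 5.01 to 5.18, and without that array Bex1 was called lower by limma (-0.69, adjusted p = 0.00978). For Ctcf it was AdLeXis 4, at 10.2 against 10.08 to 10.10 on the other AdLeXis arrays. For Hapln1 it was AdLeXis 3, at 6.32 against 7.15 to 7.24. For Pcdh20 it was AdGFP 2, at 0.546 against 1.11 to 1.15, all below the background threshold.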

How the results depend on the processing

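Over all kept probes the count called higher was 2651, and 2470 were called lower. Median scaling gave 1459 higher and 3150 lower (31.7% higher in place of 51.8%) and moved the median difference of all probes to -0.08. Without the filter on dim probes the counts were 1463 and 1506, over 55680 probes tested. Leaving out 1 array gave 1468 to 2547 higher and 1405 to 2452 lower, from fewer samples, with the lowest of both without AdLeXis 4. With every probe well above background on all 8 arrays, the 10 imprinted genes had 1 probe called higher in place of 5, since no H19 probe was kept; leaving out any array gave 5. Normexp with quantile scaling moved H19 1, H19 2, H19 3 and H19 6 to 1.48, 0.72, 0.59 and 0.22 and Dlk1 2 to 0.016, with the calls as before; the cause was not tested. Whether the replicate numbers pair the samples could not be settled, since all correlations of the arrays' deviations were small. They were 0.005 to 0.103 for same-numbered arrays and -0.095 to 0.092 for the others. AdLeXis 2 and AdLeXis 3 correlated best with the AdGFP array of their own number, AdLeXis 1 with AdGFP 4 and AdLeXis 4 with AdGFP 2. The fit with the replicate block gave 1778 higher and 1756 lower, with 4 of the 5 probes still called, 3 of them H19 probes.

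For the other lists the cause of these changes was not tested. Paternally expressed genes called higher numbered 1 with normexp, 2 with an intensity trend and 0 to 1 without 1 array; called lower, 1 with no filter, 1 with the replicate block, 3 with median scaling, quantile scaling, the 8-array filter or the trend, and 1 to 2 without 1 array. Maternally expressed genes called lower numbered 1 with no filter, 1 with the block and 1 to 3 without 1 array; called higher, 2 to 3 without 1 array. IGF genes called higher numbered 1 with normexp and 0 to 1 without 1 array; called lower, 0 with no filter, 0 with the block and 0 to 2 without 1 array. Fetal liver genes called lower numbered 2 with normexp, median scaling, quantile scaling or the block, 3 with the 8-array filter or the trend, and 0 to 2 without 1 array; 0 were called higher in any setting. Regulators called lower numbered 2 with normexp, median scaling, the 8-array filter or the trend, and 1 to 2 without 1 array; called higher, 5 with the 8-array filter, 6 with the trend and 2 to 3 without 1 array. On the cyclin list, which includes Pcna, genes called higher numbered 4 with no filter, 5 with the block and 4 to 7 without 1 array. Those called lower numbered 1 with no filter, 1 with the block and 1 to 2 without 1 array. Directions turned at uncalled genes: Igf2bp2 was -0.037, Hmga2 0.10 and Zbtb20 0.074 with normexp, Zbtb20 was 0.010 with loess, and Gpc3 was -0.0064 with quantile scaling. Leaving out 1 array gave Hmga2 -0.16 to 0.081, Zbtb20 -0.100 to 0.083, Gpc3 -0.12 to 0.25 and Afp -0.38 to 0.028. Within 500 kb, a window added after seeing the data, 1 of 42 kept probes near H19 was higher and 6 lower, and near Cdkn1c 3 of 31 were higher and 3 lower. Over all kept probes 7.7% were called higher and 7.17% lower. The windows overlap: the 3 lower probes near Cdkn1c were all of Tspan32 and were counted near H19 too, as was the Tssc4 probe called higher.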
